A study of Mus musculus with 2 samples.

Results

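The genes described here are lysozyme and granule genes linked to Paneth cells of the mouse small intestine: Lyz1 and its paralog Lyz2, the α-defensins Defa26, Defa24 and Defa17, the ribonuclease Ang4, the lectin Itln1, the lipase Pnliprp2 and the protease Mmp7. They were taken by gene name from the deposited expression table, and all 9 were present among its 12631 rows. Intestinal epithelium was profiled by RNA sequencing in 1 Myh9-/- sample and 1 control sample labelled wild type, both from C57BL/6 mice aged 8 weeks. Mice of both genotypes received tamoxifen daily on 5 days to induce the deletion, and day 5 is the time of RNA extraction. Epithelium came off the tissue in EDTA and dithiothreitol. The sources used here give neither the driver of the deletion, nor the alleles the control mice carry, nor the number of mice behind a sample. Myh9, the gene for a non-muscle myosin heavy chain, was at 13.6 in the knockout and 99.5 in the control.

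Paneth cells sit at the base of small intestinal crypts, between the stem cells. They store antimicrobial proteins in large apical granules and release them into the crypt lumen. Mouse α-defensins are made as inactive precursors that matrix metalloproteinase 7, the product of Mmp7, cleaves into the active peptides. Wnt signalling through β-catenin and TCF factors drives the maturation of Paneth cells and the expression of their defensin genes.

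Every value below is an expression level on the deposited scale with an added 1 removed, in a unit that the labels do not name. Folds are knockout over control on the scale of level plus 1, and a gene is called higher or lower past the 1.4-fold limit named in the labels. Each group held 1 sample, so no value has a replicate error, no test could be made, and every statement compares these 2 libraries. In bulk epithelium, fewer Paneth cells and less RNA per Paneth cell cannot be told apart.

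The defensin members differ from one another by few bases, which matters for how reads are assigned to them. Coding bases 178 to 282 of the 3 defensin members, which lie in 1 exon and encode the end of the peptide, are shown with capitals at the 13 positions where the 3 are not all alike. They come from GENCODE M21 transcripts on the plus strand of mm10 (GRCm38), at chr8:21735273-21735377 for Defa24, chr8:21618778-21618882 for Defa26 and chr8:21656537-21656641 for Defa17.
Defa24: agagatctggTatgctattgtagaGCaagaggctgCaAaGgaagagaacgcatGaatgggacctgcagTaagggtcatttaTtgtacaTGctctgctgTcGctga
Defa26: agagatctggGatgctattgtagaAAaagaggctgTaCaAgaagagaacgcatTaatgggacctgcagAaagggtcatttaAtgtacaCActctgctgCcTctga
Defa17: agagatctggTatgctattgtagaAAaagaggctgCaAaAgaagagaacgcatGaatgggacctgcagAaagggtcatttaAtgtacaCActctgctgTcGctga
Over all 282 coding bases, Defa17 was 95.74% identical to Defa24 and 92.91% identical to Defa26, and Defa24 was 89.36% identical to Defa26. Of the windows of 50 bases in each transcript, 28.1% in Defa24, 40.2% in Defa26 and 92.0% in Defa17 also occurred in a transcript of another gene. At windows of 100 bases, these shares were 0%, 1.1% and 90.6%. No source used here gives the read length, and the separate level of Defa17 is therefore the least certain of the 3.

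The pair of lysozyme genes is shown for the same reason. The coding bases 7 to 126 are the stretch of 120 bases within 1 exon that holds the most differences, 13 positions in capitals. They lie on the minus strand at chr10:117292713-117292832 for Lyz1 and chr10:117282117-117282236 for Lyz2, from GENCODE M21.
Lyz1: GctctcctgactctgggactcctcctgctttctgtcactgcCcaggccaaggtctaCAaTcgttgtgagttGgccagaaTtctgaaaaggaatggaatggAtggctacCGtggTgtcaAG
Lyz2: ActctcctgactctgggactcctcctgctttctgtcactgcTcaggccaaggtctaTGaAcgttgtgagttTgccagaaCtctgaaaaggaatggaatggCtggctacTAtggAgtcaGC
The full coding sequences of 447 bases differed at 22 positions and were 95.08% identical. Of the windows of 50 bases, 16.1% in Lyz1 and 15.4% in Lyz2 were shared, in each case with the other lysozyme gene alone. At 100 bases the shares were 2.06% and 1.97%. Mmp7 and Pnliprp2 shared no such window of 50 bases with another gene, Itln1 shared 1.01% and Ang4 shared 4.7%.

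Most Paneth cell granule genes were lower in the knockout. Of the 9 members, 7 were lower by 1.69-fold to 3.94-fold, 1 was higher (Lyz2) and 1 lay between the limits (Mmp7). Among all 12152 rows whose larger level reached 1, 16.3% were lower, 15.9% were higher and 32.3% were called in either direction. At a 2-fold limit, 4 members were lower (Pnliprp2, Itln1, Defa26 and Defa17) and Lyz2 was higher, against 4.28% lower, 4.49% higher and 8.77% in either direction among all rows. After rescaling to equal totals without mitochondrial-genome and the 20 most abundant genes, 12.7% of all rows were lower and 20.3% higher. The members' median log2 fold was -0.83, against -0.004 for all rows. All 9 members had a level of at least 1 in both samples, so none was counted through 1 sample alone.

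**Figure D1:**
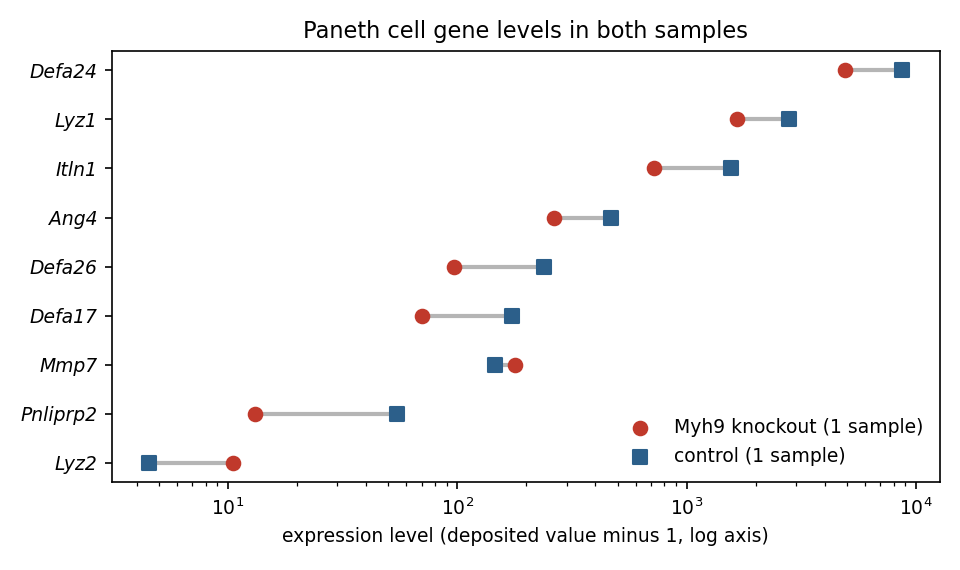
Expression level (deposited value minus 1, log axis) of the 9 Paneth cell genes, with a red circle for the Myh9 knockout sample and a blue square for the control sample. The knockout lies left of the control for 7 genes and right of it for Mmp7 (179 against 146) and Lyz2 (10.5 against 4.54).

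Lyz1, the Paneth cell lysozyme that cleaves bacterial peptidoglycan, was at 1653 in the knockout and 2797 in the control, a log2 fold of -0.76. Lyz2, the lysozyme of macrophages and neutrophils, was at 10.5 in the knockout and 4.54 in the control, 2.08-fold higher. The 2 paralogs have transcripts of similar length, 1263 and 1316 bases, so their levels can be set beside each other: the Lyz1 level was 157 times that of Lyz2 in the knockout and 616 times in the control. Lyz1 lies at 117287797 to 117292868 on chromosome 10, 5.48 kb from Lyz2 at 117277331 to 117282321, both on the minus strand. None of the other 5 genes of the lysozyme list (Spaca3, Lyzl1, Lyzl4, Lyzl6 and Lalba) had a row. Lyz2 is also 1 of the 26 genes that the authors set apart in a second deposited sheet, with the same values. That sheet is therefore not separate evidence on Lyz2.

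Sequence before the start of both lysozyme genes is shown because the neighbours differ in opposite directions. It covers the 200 bases farthest from the start, of 250 in the RefSeq promoter table (GRCm38.p6, minus strand), at chr10:117292919-117293118 for Lyz1 and chr10:117282323-117282522 for Lyz2, with capitals where the aligned bases differ.
Lyz1: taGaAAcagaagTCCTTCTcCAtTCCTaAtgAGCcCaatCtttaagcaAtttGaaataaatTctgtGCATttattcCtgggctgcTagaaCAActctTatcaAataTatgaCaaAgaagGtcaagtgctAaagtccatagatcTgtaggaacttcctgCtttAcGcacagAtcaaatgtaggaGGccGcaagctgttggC
Lyz2: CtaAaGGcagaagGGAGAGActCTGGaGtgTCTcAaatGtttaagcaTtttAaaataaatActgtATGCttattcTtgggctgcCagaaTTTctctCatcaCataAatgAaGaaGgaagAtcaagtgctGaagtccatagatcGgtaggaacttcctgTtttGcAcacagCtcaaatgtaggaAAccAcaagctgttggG
Over all 250 bases the alignment was 79.4% identical, with 52 differing positions, and the 50 bases nearest the start did not differ at any position.

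Itln1, a lectin that binds microbial surface sugars, was at 723 in the knockout and 1567 in the control, 2.16-fold lower (chromosome 1, 171518122 to 171535294). Ang4, a ribonuclease of the angiogenin family with microbicidal activity, was at 263 in the knockout and 469 in the control, 1.78-fold lower (chromosome 14, 51763878 to 51773590). Its relative Ang had 10.4 in the knockout and 17.6 in the control, 1.64-fold lower. Within each sample, the ratio of Ang4 to Lyz1 was 0.159 in the knockout and 0.168 in the control, and that of Itln1 to Lyz1 was 0.438 in the knockout and 0.56 in the control. Ang4 thus differed by nearly the same factor as Lyz1, and Itln1 by a larger one.

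Pnliprp2, a lipase related to pancreatic lipase that acts on galactolipids, was at 13.2 in the knockout and 54.8 in the control, a log2 fold of -1.98 and the largest difference of the 9 (chromosome 19, 58759719 to 58777534). Clps, which encodes colipase, was at 110 in the knockout and 251 in the control. Both genes are also active in pancreatic acinar cells. Of the 21 acinar markers, 18 had no row, among them Prss1, Cpa1 and Pnlip of the defining markers. The 3 with a row were Clps, Sycn and Cela1. Sycn was at 0.209 in the knockout and 3.7 in the control. Cela1, also a defining marker, was called higher, at 6.19 in the knockout and 3.75 in the control.

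Mmp7, the protease that activates the defensin precursors, was at 179 in the knockout and 146 in the control, a log2 fold of 0.30, within the 1.4-fold limits (chromosome 9, 7692090 to 7699585). Alone among the 9 it was not called. The summed level of all defensin rows was 110 times that of Mmp7 in the knockout and 248 times in the control. Among the 8 metalloproteinase and inhibitor genes with a row, Mmp7 included, 4 were called higher and none lower. The shares over all rows were 15.9% higher and 16.3% lower. Mmp28 was at 9.53 in the knockout and 4.88 in the control, and Mmp14, a membrane-bound protease, was at 10.97 in the knockout and 7.02 in the control. Mmp10 (2.1 in the knockout and 0.0598 in the control) and Mmp9 (1.13 in the knockout and 0.422 in the control) passed the level minimum through the knockout alone. Mmp15 was at 7.16 in the knockout and 7.71 in the control, and the inhibitors Timp1 (0.914 in the knockout and 1.02 in the control) and Timp2 (1.03 in the knockout and 1.43 in the control) lay between as well.

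**Figure D2:**
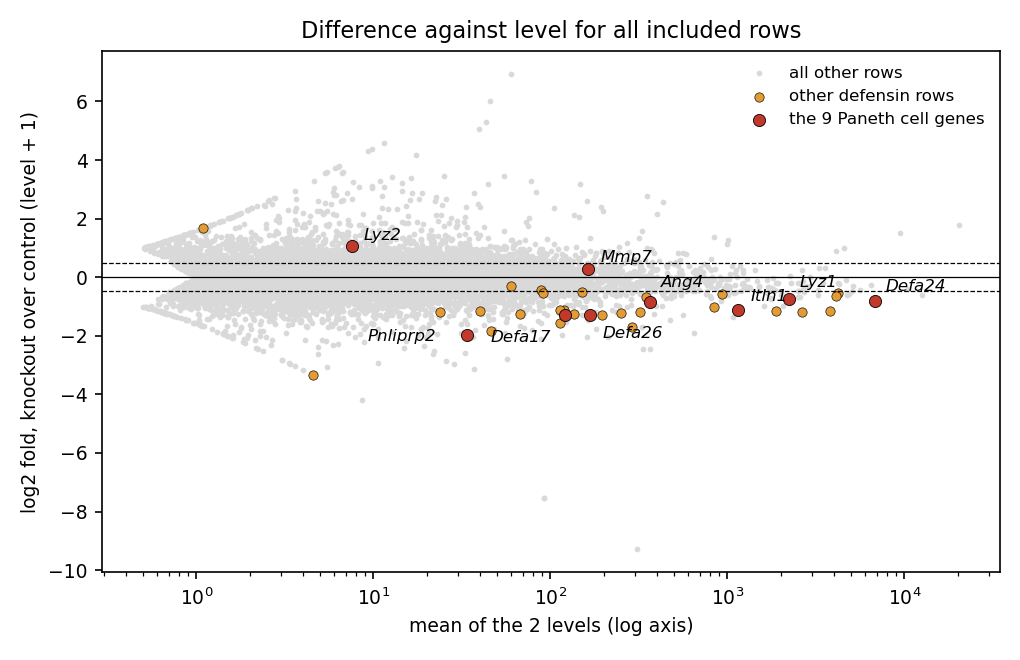
Log2 fold of the knockout over the control (level plus 1) against the mean of both levels (log axis) for all 12152 included rows in grey, other defensin rows in orange and the 9 Paneth cell genes in red; dashed lines mark 1.4-fold. Apart from Lyz2 and Mmp7, the 9 genes lie below the lower line, and the abundant ones stand at levels where few grey points do.

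Defa24 is the most abundant of the 3 defensin members. It was at 4925 in the knockout and 8707 in the control, 1.77-fold lower, and was number 8 of all rows by level in the knockout and number 4 in the control. Defa26 was at 96.7 in the knockout and 239 in the control, 2.46-fold lower. Defa17 was at 70.1 in the knockout and 173 in the control, 2.45-fold lower. The fold of Defa24 was thus smaller than that of the other 2 defensin members. The 3 genes lie on the plus strand of chromosome 8, Defa26 at 21618183 to 21618972, Defa17 at 21655780 to 21656735 and Defa24 at 21734494 to 21735471.

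Most other α-defensin rows were lower too. Of the 26 that are not members, 23 were lower by at least 1.4-fold, 1 was higher and 2 lay between, and their levels summed to 14644 in the knockout and 27109 in the control. With the 3 members, the table held 29 rows for this family, 16 of them under names other than the current RefSeq symbol, all within 709 kb of chromosome 8. Of these 29 rows, 26 were lower, against 16.3% lower among all rows. The 27 rows above 0 in both samples were between 1.24-fold and 3.56-fold lower, with a median log2 fold of -1.15. The summed level of all 29 rows was 19736 in the knockout and 36228 in the control, which is 3.11% of the listed total in the knockout and 5.4% in the control. Counted against Lyz1, the defensin sum was 11.9 times the Lyz1 level in the knockout and 13.0 times in the control.

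**Figure D3:**
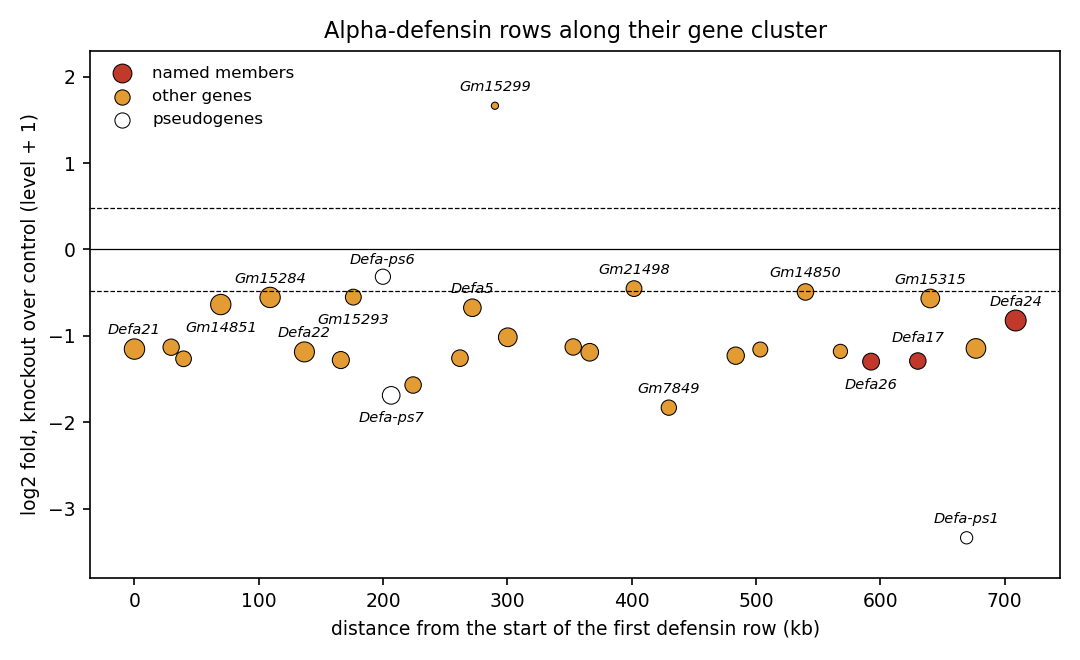
Log2 fold of the knockout over the control (level plus 1) for the 29 α-defensin rows against distance in kb from the start of the first row, with larger points for higher control levels, red for Defa26, Defa17 and Defa24, orange for other genes and white for pseudogenes; dashed lines mark 1.4-fold. Rows near -0.6 lie among rows near -1.2 along the cluster.

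The other abundant family members were Gm15284, which RefSeq lists as Defa30, at 3398 in the knockout and 4992 in the control, and Gm14851, listed as Defa38, at 3216 in the knockout and 5002 in the control. Defa21 was at 2366 in the knockout and 5261 in the control, and Defa22 was at 1609 in the knockout and 3662 in the control. AY761184, at the position of RefSeq Defa39, was at 1175 in the knockout and 2601 in the control. Gm15284 and Gm14851 were thus 1.47-fold and 1.56-fold lower, while Defa21, Defa22 and AY761184 were each lower by 2.21-fold to 2.27-fold. The make-up of the defensin total shifted accordingly. Gm15284 held 17.2% of the sum in the knockout and 13.8% in the control, Defa21 held 11.99% in the knockout and 14.5% in the control, and Defa24 held 25.0% in the knockout and 24.0% in the control.

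**Figure D4:**
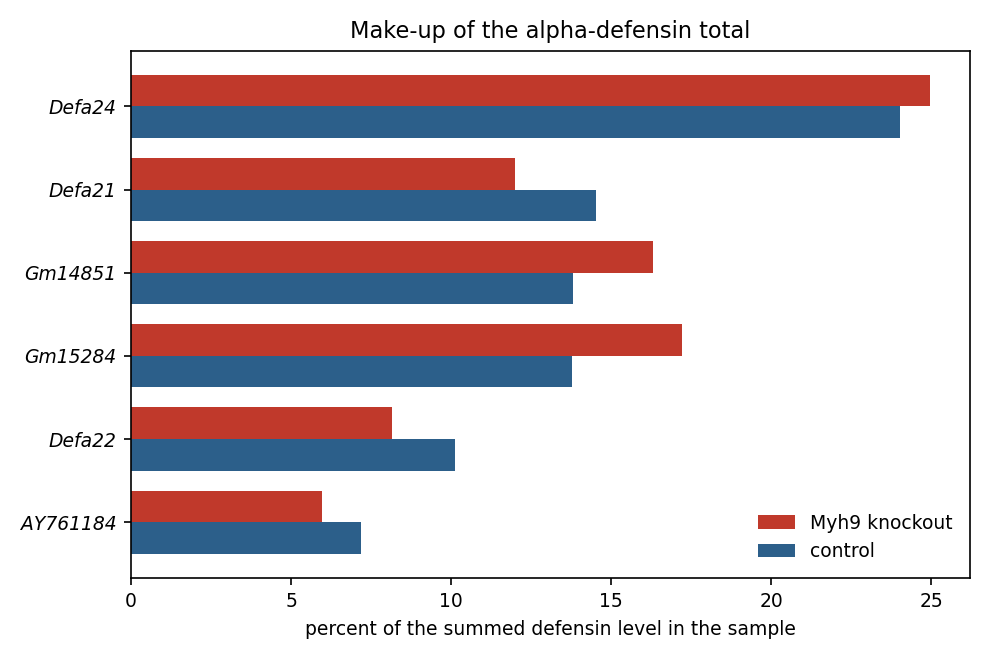
Percent of the summed α-defensin level held by each of the 6 rows with the largest control shares, with red bars for the knockout and blue bars for the control. Defa24 has the largest share in both samples, 25.0% in the knockout and 24.0% in the control, and Gm15284 has a larger share in the knockout than in the control.

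Folds were also set beside coding sequence. Among the 26 rows with a coding sequence, the log2 fold of a row and of its nearest relative by coding identity differed by a median of 0.14, against a median of 0.45 over all pairs of rows, and 15 of the 26 rows were within 0.2 of their nearest relative. This is a description only. In 6 pairs the coding sequences were identical, so reads from coding bases alone cannot be assigned within a pair. Both rows of a pair count here, and rows of such pairs are among the 15 within 0.2. The smaller median is therefore not independent of how reads were assigned. Defa5 and its relatives (Gm15293, Gm15315, Gm21498, Gm14850 and Gm10104), joined at 98% identity or more, summed to 1330 in the knockout and 2021 in the control, 1.52-fold lower. Within this group Defa5 was at 266 in the knockout and 425 in the control, Gm21498 was 1.37-fold lower, and Gm10104 was 2.40-fold lower, at 38.97 in the knockout and 95.1 in the control. The group of Defa2, Gm21002, Defa20 and Gm15308 summed to 443 in the knockout and 1017 in the control, 2.29-fold lower, and its 4 rows ranged from 2.19-fold to 2.34-fold lower.

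Identical coding sequences limit how far single rows can be read. Defa17 is the 1 member in an identical pair, with Defa3, which was at 80.1 in the knockout and 193 in the control, 2.39-fold lower. Defa23 (70.5 in the knockout and 155 in the control) is identical in coding sequence to Defa-rs7, listed as Defa31 (114 in the knockout and 278 in the control). The pair Gm7849 and Gm7861 differed most within itself, with Gm7849 at 19.6 in the knockout and 72.3 in the control and Gm7861 at 14.2 in the knockout and 33.5 in the control. Gm15292, listed as Defa40, was at 56.9 in the knockout and 171 in the control.

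The 3 defensin rows not called lower were Gm15299, Gm21498 and the pseudogene Defa-ps6. Gm15299, listed as Defa27, was at 2.17 in the knockout and listed at 0 in the control, and it passed the level minimum through the knockout alone. Gm21498, a protein-coding gene listed as Defa36, was at 74.8 in the knockout and 103 in the control, just within the limits. Defa-ps6 was at 53.1 in the knockout and 66.3 in the control. The other pseudogenes were lower: Defa-ps7 was at 137 in the knockout and 444 in the control, 3.22-fold lower, and Defa-ps1 was listed at 0 in the knockout and at 9.1 in the control. Pseudogene rows share stretches with the genes around them: 64.8% of the windows of 50 bases in Defa-ps6 occurred in another gene's transcript.

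Promoters are shown for 2 defensin rows that were both lower, but by different factors. The RefSeq table held promoters for 15 of the 29 defensin rows and for 6 of the 9 members (Lyz1, Lyz2, Mmp7, Itln1, Ang4 and Pnliprp2). The 250 bases before the start are shown for Defa21 (chr8:21025295-21025544, plus strand) and Gm15284 (chr8:21134400-21134649, plus strand). Capitals mark matches on either strand to CTTTGNT, a loose form of the core that TCF factors bind, or to TATAAA, the TATA box.
Defa21: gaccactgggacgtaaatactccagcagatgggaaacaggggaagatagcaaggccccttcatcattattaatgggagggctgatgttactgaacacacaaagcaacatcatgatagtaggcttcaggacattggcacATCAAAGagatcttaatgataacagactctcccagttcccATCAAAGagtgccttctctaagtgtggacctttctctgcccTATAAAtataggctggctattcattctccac
Gm15284: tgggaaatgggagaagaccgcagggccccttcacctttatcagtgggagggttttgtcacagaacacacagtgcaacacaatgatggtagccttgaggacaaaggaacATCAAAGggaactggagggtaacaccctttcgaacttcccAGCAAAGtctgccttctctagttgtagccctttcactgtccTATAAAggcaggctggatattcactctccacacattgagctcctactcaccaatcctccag
In Defa21 the CTTTGNT matches began 112 and 72 bases before the start and TATAAA 31 bases before it. In Gm15284 matches to the same motifs began 142, 102 and 61 bases before the start. The Gm15284 match at 102 bases reads AGCAAAG, and the other CTTTGNT matches shown read ATCAAAG. Of the 15 defensin promoters, 12 held CTTTGNT and 15 held TATAAA, whereas 16% and 12.4% of all 32851 promoters in the table did; another motif, the E-box CAGCTG, was in none of the 15 and in 13.0% of all promoters. The 15 promoters belong to related genes of 1 cluster, and the 250 bases of Defa21 and Defa22 were identical. The 15 are therefore not separate cases, and these shares are a description only. The folds of the 12 rows with CTTTGNT ranged from 0.412 to 0.731 and those of the 3 without it from 0.281 to 0.643, so the ranges overlapped. Among the 7 promoters of members, 2 held CTTTGNT (Itln1 and 1 of the 2 Mmp7 promoters) and 1 held TATAAA (the other Mmp7 promoter).

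Other listed Paneth cell products were lower or lay between. Of 13 with a row, 9 were lower, 4 lay between and none was higher, against 16.3% lower and 15.9% higher among all rows. Their median log2 fold was -0.64. The list held the Reg genes Reg3a and Reg4 but not Reg3b and Reg3g, which were called higher and are given below. Without the 2 defensin rows in this list, 7 of 11 were lower. Mptx2, a mucosal pentraxin of Paneth cells, was at 289 in the knockout and 432 in the control, and Cd24a, a surface protein used to sort them, was at 46.5 in the knockout and 73.1 in the control. Habp2, a secreted serine protease, was at 5.5 in the knockout and 9.79 in the control. The chemokine Ccl6 was at 32.6 in the knockout and 110 in the control, and the lectin Reg3a was at 46.9 in the knockout and 187 in the control. Kcnn4, a potassium channel, was at 35.2 in the knockout and 41.8 in the control, and Pla2g2a, a secreted phospholipase disrupted in C57BL/6 mice, was at 25.3 in the knockout and 23.7 in the control. Reg4 (97.8 in the knockout and 104.5 in the control) and Nupr1 (18.0 in the knockout and 18.6 in the control) also lay between, and Mptx1 had no row.

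Genes that specify Paneth cells did not share one direction. Of 11, 3 were called lower and 3 higher, against 16.3% lower and 15.9% higher among all rows. Their median log2 fold was -0.01. Sox9, a transcription factor required for Paneth cells to form, was at 6.14 in the knockout and 6.68 in the control. Gfi1, a transcription factor of the secretory lineage, was at 2.92 in the knockout and 4.12 in the control, and Ephb3, the receptor that keeps Paneth cells at the crypt base, was at 3.59 in the knockout and 3.62 in the control. The lower genes were Fgfr3 (3.18 in the knockout and 9.36 in the control), Atoh1, the secretory fate factor (6.34 in the knockout and 11.2 in the control), and Fzd5, a Wnt receptor that Paneth cells need for maturation (16.6 in the knockout and 24.4 in the control). The higher genes were Tcf7l2, which encodes TCF4 (35.3 in the knockout and 22.8 in the control), Xbp1, a regulator of secretory capacity (93.7 in the knockout and 64.2 in the control), and Ctnnb1, which encodes β-catenin (364 in the knockout and 251 in the control).

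Signals that Paneth cells give to stem cells went both ways. Of the 5 included, 1 was lower (the Notch ligand Dll1, 7.4 in the knockout and 11.3 in the control), 2 were higher and 2 lay between. Dll4, another Notch ligand, was at 5.69 in the knockout and 3.57 in the control, and Tgfa, an EGF receptor ligand, was at 7.62 in the knockout and 4.39 in the control. Bst1, an ectoenzyme of Paneth cells that makes cyclic ADP-ribose, was at 23.4 in the knockout and 30.1 in the control. Wnt3 was at 0.883 in the knockout and 1.35 in the control, and Egf had no row. Genes of the secretory pathway, the endoplasmic reticulum and autophagy mostly lay between, 21 of 28, with 3 lower and 4 higher, against 16.3% lower and 15.9% higher among all rows. Their median log2 fold was 0.06. The higher genes were Atf4, Xbp1, Ddit3 and Hspa5. Atf4, a stress-response transcription factor, was at 80.4 in the knockout and 50.3 in the control, and Hspa5, the chaperone BiP, was at 223 in the knockout and 158 in the control, 1.41-fold higher. Other genes of the response to unfolded protein in this list were not called, among them Ern1 (5.38 in the knockout and 7.2 in the control) and Hsp90b1 (263 in the knockout and 213 in the control). The lower genes were Scgn (0.94 in the knockout and 2.11 in the control), Rab3d, a GTPase of secretory granules (14.1 in the knockout and 20.3 in the control), and Tfeb (5.81 in the knockout and 8.55 in the control). Atg16l1, an autophagy gene linked to Paneth cell granules, was at 11.02 in the knockout and 9.68 in the control.

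**Figure D5:**
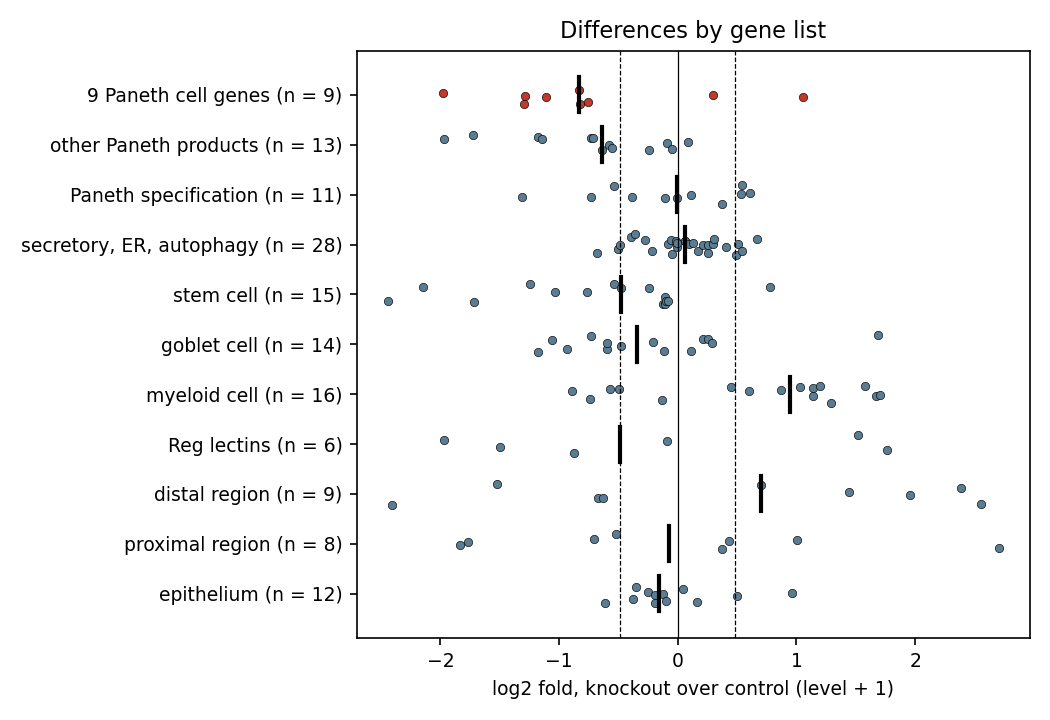
Log2 fold of the knockout over the control (level plus 1) for each included gene (points) of the 9 Paneth cell genes and 10 other lists, with the list median as a black bar and dashed lines at 1.4-fold; points are spread vertically for legibility. The median of the 9 genes is -0.83, that of other Paneth products is -0.64, and that of the specification genes is -0.01.

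Markers of other cells moved beside these genes, and their part in the results was not tested. For Lyz2, 17 of 30 myeloid markers had a row. Of the 16 included, 10 were higher and 4 lower, against 15.9% higher and 16.3% lower among all rows. Their median log2 fold was 0.95, or 0.73 over genes above 0 in both samples. Their summed level was 83.9 in the knockout and 82.9 in the control. Csf1r lay between the limits, at 1.92 in the knockout and 1.14 in the control, and Adgre1 had no row. The macrophage gene Cd68 was called higher, at 3.02 in the knockout and 0.266 in the control. Ly6g of neutrophils was called higher too, at 1.2 in the knockout and listed at 0 in the control. Lcn2 (7.7 in the knockout and 1.67 in the control) and Ltf (9.66 in the knockout and 2.58 in the control) were also higher, while Fcer1g (13.7 in the knockout and 26.3 in the control), Laptm5 (14.6 in the knockout and 25.1 in the control) and Itgax (1.34 in the knockout and 2.47 in the control) were lower. Of the included myeloid genes, 7 passed the level minimum through the knockout alone.

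Neighbours of Paneth cells in the crypt were lower in part. Of 15 stem cell genes, 7 were called lower and 1 higher, against 16.3% lower and 15.9% higher among all rows. Their median log2 fold was -0.48, with Olfm4 at 113 in the knockout and 619 in the control. Gkn3 and Tnfrsf19, both called lower, passed the level minimum through the control alone. Of 14 goblet cell genes, 6 were called lower and 1 higher. Their median log2 fold was -0.34, or -0.48 over genes above 0 in both samples. The higher one, Retnlb, was at 2.21 in the knockout and listed at 0 in the control. It passed the level minimum through the knockout alone. The lower ones include Clps and Atoh1, which are also counted in the Paneth cell lists above. The mucus protein gene Fcgbp was at 542 in the knockout and 1132 in the control, whereas Muc2 was at 44.9 in the knockout and 38.6 in the control. Muc2 and Clca1 (197 in the knockout and 276 in the control) lay between. Zg16 (3763 in the knockout and 5691 in the control) and Tff3 (2579 in the knockout and 3890 in the control) were called lower, as was Fcgbp. Of 12 epithelial genes, 1 was lower and 2 were higher, with Epcam at 633 in the knockout and 680 in the control, and the Lyz1 level was 2.61 times that of Epcam in the knockout and 4.12 times in the control.

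Genes of secreted Reg lectins went both ways. Of the 6 Reg genes with a row, Reg3b and Reg3g were higher, Reg3a, Reg1 and Reg3d were lower, and Reg4 lay between. Reg3d passed the level minimum through the control alone. Reg3b was at 31430 in the knockout and 9242 in the control, and Reg3g was at 14011 in the knockout and 4890 in the control. Regional genes, which matter because Paneth cell number and defensin use vary along the intestine, were mixed. Of 9 distal genes 4 were lower and 5 higher, with Fabp6 at 741 in the knockout and 125 in the control and Cubn at 4.05 in the knockout and 25.7 in the control. Of 8 proximal genes 4 were lower and 2 higher, with Slc40a1 at 0.437 in the knockout and 4.14 in the control and Fabp1 at 6049 in the knockout and 3018 in the control. Slc10a2 of the distal list and Hamp of the proximal list passed the level minimum through the knockout alone, and Slc40a1 through the control alone. The shares over all rows were 16.3% lower and 15.9% higher. Whether the regional make-up of the samples plays a part in the Paneth cell differences was not tested.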

How the data were processed

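RNA of intestinal epithelium was sequenced in 1 Myh9 knockout and 1 control sample, and samples were grouped by their genotype label. The submitters' processing notes name HISAT2, StringTie and the mm10 build but neither versions nor what each was used for. The deposited table gives 1 signal value per gene and sample; the labels do not name its unit, length scaling or any filter on low genes. No deposited value was below 1, and after removal of 1 none had over 6 significant digits, so 1 was subtracted. The deposited fold change, a ratio by the authors, equalled the ratio of the deposited values within 1.22e-07. Sequencing depth is unknown; the levels summed to 634492 in the knockout and 671114 in the control.

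Log2 folds used a pseudocount of 1, which understates differences of low genes. Rows with a larger level of at least 1 were counted, and with 1 sample per group no test was made; the fold rule replaced it. The table was read with pandas 2.3.3 and sequences were aligned with Biopython 1.88; the calling step was tested on simulated data. Defensin rows were matched by RefSeq symbol, synonym or position. Coding sequences came from GENCODE M21, whose symbols covered 12222 row names; promoters came from RefSeq GRCm38.p6. No source used here gives the strand setting of the counting, so overlapping and near-identical genes are uncertain. Named genes were the members, all rows of their families, and from each other list the first 3 genes and up to 3 called genes at each end; values of context lists are printed only beside the members they bear on. The members and lists were chosen with earlier results of these data known. Alternatives were other pseudocounts, filters, a 2-fold limit and 3 rescalings. Values of 1 defensin row are not reported here singly.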

Additional observations from a re-analysis of the deposited data

How the results depend on the processing

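Across 8 settings (pseudocounts of 0.1 and 10, no filter, a filter at 5, a 2-fold limit and 3 rescalings), no member changed direction, and the members' median log2 fold stayed between -0.83 and -0.72. At a 2-fold limit, 4 of the 9 members were lower instead of 7, since Lyz1, Ang4 and Defa24 lie under it. Of the 29 defensin rows, between 19 and 26 were lower over these settings, and 20 of 23 were lower when identical coding sequences were summed (chosen after seeing the data). The 4 other Paneth lists together had 16 lower and 8 higher genes. The lower genes became 8 at a pseudocount of 10, 5 at 2-fold and 10 after rescaling without mitochondrial and the 20 most abundant genes. The higher genes became 2 at a pseudocount of 10 and 0 at 2-fold. Shares over all rows also depended on the setting, with 16.3% lower and 15.9% higher in the main setting. They were 5.36% lower and 5.23% higher at a pseudocount of 10, and 4.28% lower and 4.49% higher at 2-fold. With a filter at 5 they were 15% lower and 15.7% higher, and after that rescaling 12.7% lower and 20.3% higher. Higher myeloid markers, 10 in all, became 2 at a pseudocount of 10 and 3 with a filter at 5, which leaves fewer genes, and 8 without Lcn2 and Ltf (chosen after seeing the data). Of the 184 other values, 167 kept their call or count, 14 counts of other lists moved, 3 values (Lyz1, Ang4 and Defa24 at 2-fold) lost their call and 0 reversed. The 4 higher metalloproteinase genes became 0 at a pseudocount of 10. No paired analysis was possible because each group holds 1 sample. With depth unknown, differences of low genes such as Lyz2 cannot be given a counting error.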
